A study of Mus musculus with 12 samples.

Results

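The mitochondrial ribosomal proteins, the protein subunits of the ribosome inside mitochondria, were followed in quadriceps muscle of C57Bl/6J mice given drugs for 6 days. A gene was taken as a member when its array symbol began with Mrpl or Mrps and a digit, and each gene was represented by the brightest of its probe sets, judged by mean log2 signal over the 12 arrays. This gave 76 genes among the 18193 genes with a single symbol on the array, and all 76 were among the 12771 genes bright enough to be tested. By textbook assignment 49 belong to the large subunit and 26 to the small subunit, and Mrps36 was assigned to neither. The groups were GW1516 plus AICAR (the combination), AICAR alone at 250 mg/kg/day, GW1516 alone at 5 mg/kg/day, and vehicle, with 3 arrays in each. In the combination each drug was given at the same dose as alone. AICAR is an adenosine analogue that activates AMP-activated protein kinase, an energy sensor, and GW1516 is an agonist of the nuclear receptor PPARδ. Every array carried RNA pooled from 3 mice, so no array is an individual animal. The labels give no age or sex and do not say whether pools of one group shared mice, so the spread between arrays may be partly technical.

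Mitochondria keep a small genome of their own, and its messages are translated by a ribosome that exists only in the organelle. The ribosomal RNAs of that ribosome come from mitochondrial DNA, whereas all of its proteins are encoded in the nucleus, made in the cytosol and imported. Its only products are core subunits of the respiratory chain and of ATP synthase, which working muscle uses for oxidative metabolism. Some of its proteins descend from those of bacterial ribosomes and others are found only in mitochondria. Among the members, 47 have a bacterial counterpart and 29 were counted as specific to mitochondria.

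All 10 defining skeletal muscle markers were measured, and their median stood between -0.04 and 0.31 log2 units of the vehicle mean on every array. These values compare arrays of one study with each other, so they cannot check the tissue label. Of 14 PPAR targets tested, 8 passed the threshold in the combination and 6 in GW1516 alone, where 0.258% and 0.0940% of all genes did. That list was chosen with earlier results of these data known, so it is no independent check of the drug response. Ucp3, a mitochondrial uncoupling protein, differed by 1.46 ± 0.16 (SE) on the log2 scale between combination and vehicle (limma, adjusted p = 0.000996). GW1516 replicate 2 stood apart, with the lowest array weight (0.328, where an average array has about 1) and with a summed fibroblast and matrix marker signal of 15294, against 27351 or more on the other 11 arrays. Summed adipocyte marker signals ranged over 18328 to 33471 in the combination, 20167 to 36935 in AICAR, 16158 to 30368 in GW1516 and 17328 to 25751 in vehicle. The muscle held several cell types, so fewer cells of a type and less RNA per cell cannot be told apart. The medians of the family and the named differences from GW1516 that this array moved by over 1.5 times are also given without it.

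No member passed the threshold, an adjusted p under 0.05 over all 12771 genes, in any comparison. The shifts of the family were small. Measured against the mean of the vehicle arrays, the median of the 76 members was -0.036, -0.070 and 0.028 log2 units on the 3 combination arrays. On the AICAR arrays it was -0.078, -0.10 and -0.11, and on the GW1516 arrays 0.066, -0.18 and -0.088. The vehicle arrays themselves stood at -0.035, 0.0060 and 0.023. All 3 AICAR arrays therefore lay below all 3 vehicle arrays, while the combination and GW1516 arrays overlapped them. The Gapdh control's 3'/5' ratio, a sign of RNA quality, moved with this split, at 0.848 to 0.880 on the AICAR arrays against 0.802 to 0.842 on the vehicle arrays, whereas that of the Actb control overlapped (0.856 to 0.909 against 0.855 to 0.936). The median signal of all probe sets was also wholly higher on the AICAR arrays (52.0 to 54.2 against 48.0 to 49.8 in vehicle). This median was wholly higher than vehicle on the combination arrays too (50.6 to 51.9), where the Gapdh ratio was 0.831 to 0.870. On the GW1516 arrays the median signal was 45.4 to 49.1 and the Gapdh ratio 0.838 to 0.863. The part of the Gapdh ratio in the members' shift was not tested. The median of all genes moved less, between -0.048 and 0.022 on every array. After quantile normalization, which gives every array the same distribution of signals, the AICAR medians were -0.056, -0.085 and -0.092, still below the vehicle medians of -0.031, 0.016 and 0.021.

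**Figure D1:**
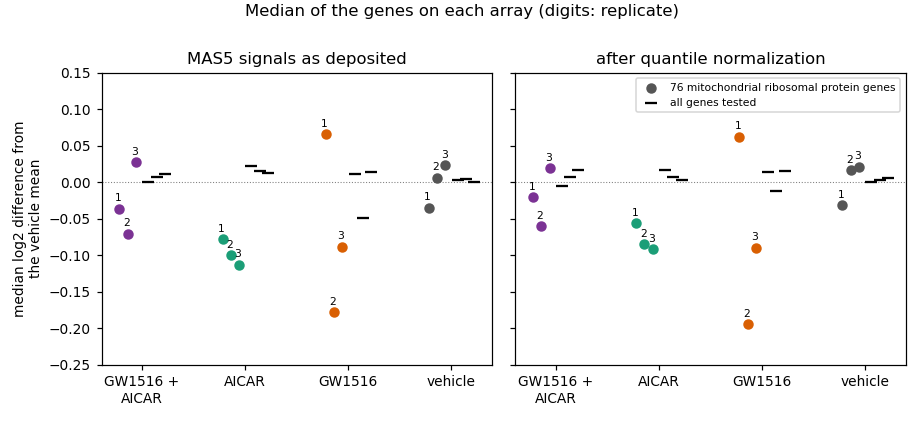
Median log2 signal of the 76 members on each of the 12 arrays (dots, digit = replicate) and of all 12771 genes (dashes), relative to the vehicle mean, as deposited (left) and after quantile normalization (right). The 3 AICAR arrays lie between -0.11 and -0.078 as deposited, below every vehicle array, and the GW1516 arrays spread from -0.18 to 0.066.

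The sum of the 76 signals likewise put AICAR below vehicle without overlap. It ranged from 84669 to 88897 in the combination, from 79677 to 81965 in AICAR, from 75330 to 89420 in GW1516 and from 85201 to 87646 in vehicle. The GW1516 group thus held both the lowest and the highest sum of the 12 arrays. GW1516 replicate 2 gave the lowest signal of all 12 arrays for 31 members (40.8%), against 19.8% of all genes, and GW1516 replicate 1 gave the highest for 19 members (25%), against 7.34% of all genes. Fibroblast and macrophage marker medians were also lowest on GW1516 replicate 2, at -1.10 and -0.64, and their part in the members' values was not tested.

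**Figure D2:**
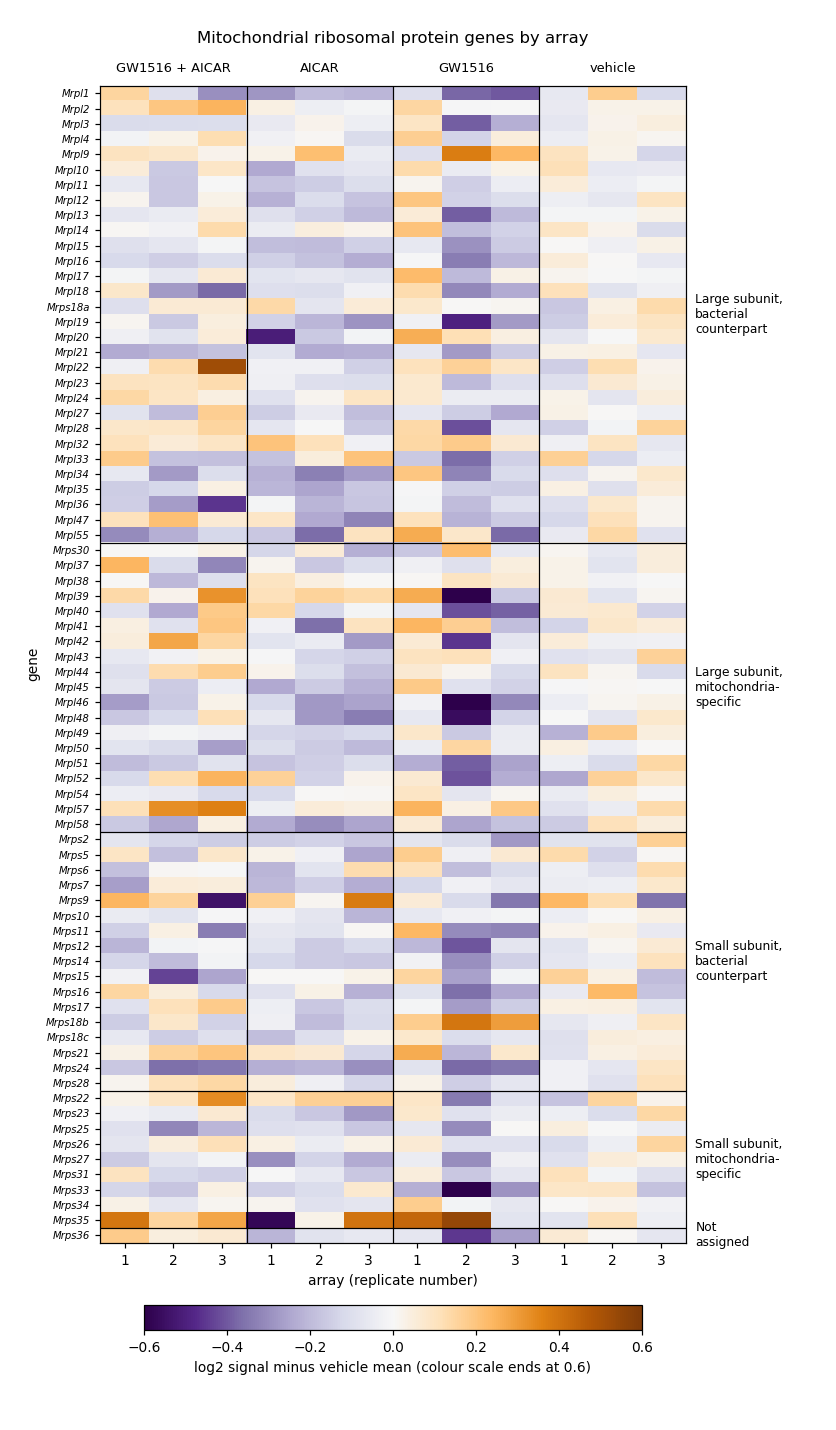
Each of the 76 genes (rows, by subunit and origin) on each of the 12 arrays (columns), coloured by log2 signal minus the gene's vehicle mean, with the colour scale ending at 0.6 in either direction. Most rows are below the vehicle mean on the 3 AICAR arrays (57, 58 and 56 of 76 genes) and on GW1516 replicates 2 and 3 (61 and 60), whereas 29 are below it on GW1516 replicate 1.

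These genes were measured more tightly than most. Their mean signals ran from 223 to 7415, with a median of 870 against 192 for all genes tested. Signals of different probe sets are not comparable as RNA amounts, so they are not ranked here as levels. The SD between arrays of one group had a median of 0.11 log2 units over the members, against 0.23 over all genes, and ran from 0.056 for Mrps10 to 0.31 for Mrps35. The median standard error of a difference was 0.10, against 0.19. In AICAR against vehicle, the 95% interval of the difference lay within 0.5 log2 units of zero (1.41-fold) for 72 of 76 members, against 42.4% of all genes. The same held for 66 members in GW1516 and 70 in the combination.

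AICAR alone against vehicle asked how the family stood after this drug, and the arrays do not measure the activity of AMP-activated protein kinase. In AICAR muscle 60 of 76 members had a mean below vehicle, where 48.0% of all genes did, and the median difference was -0.095 log2 units, against 0.01 for all genes. All 3 AICAR arrays lay below all 3 vehicle arrays for 24 members, where 9.03% of all genes did so, and above them for 1 member (9.30%). By limma 0 members passed the threshold, where 0.00783% of all genes (1 gene) did, and the smallest adjusted p was 0.643. At an unadjusted p under 0.05 there were 7 members lower and 0 higher, beside 3.05% and 3.88% of all genes. The members share the same 6 arrays, so their 60 values below zero are not independent of each other.

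Both subunits lay mostly below vehicle in AICAR. In AICAR 38 of 49 large subunit genes and 21 of 26 small subunit genes were below vehicle, with medians of -0.099 and -0.085. Genes with a bacterial counterpart had a median of -0.10 (38 of 47 below) and mitochondria-specific genes one of -0.093 (22 of 29 below). No difference between these subsets was tested.

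Mrps24, the counterpart of bacterial S3 at the messenger RNA entry of the small subunit, had the smallest p in AICAR. Its signals were 1258, 1098 and 1110 in the combination, 1204, 1217 and 1148 in AICAR, 1333, 1089 and 1108 in GW1516, and 1388, 1346 and 1504 in vehicle. Every treated array was below every vehicle array. The differences from vehicle were -0.29 in the combination, -0.25 ± 0.094 (SE) in AICAR and -0.27 in GW1516, and limma gave adjusted p = 0.263 for the combination, 0.643 for AICAR and 0.436 for GW1516. Another probe set of lower signal for the same gene gave -0.00 in the combination, -0.06 in AICAR and -0.02 in GW1516, so the difference was not seen on both. Both probe sets are of a design that can bind related transcripts. The 250 bases before the start of Mrps24, shown because its 3 differences were among the largest of the family, lie at chr11:5707702-5707951 on the minus strand of GRCm38.p6 (RefSeq) and held none of the 6 motifs searched.
Mrps24: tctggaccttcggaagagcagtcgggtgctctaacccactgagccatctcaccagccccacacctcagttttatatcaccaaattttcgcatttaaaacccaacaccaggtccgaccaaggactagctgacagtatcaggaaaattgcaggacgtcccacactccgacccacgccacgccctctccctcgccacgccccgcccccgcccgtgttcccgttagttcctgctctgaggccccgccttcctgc

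Other members at the lower end in AICAR had smaller or noisier differences. Mrpl35, a counterpart of bacterial L35, had 1227, 1193 and 1263 in AICAR against 1454, 1333 and 1472 in vehicle, a difference of -0.21 ± 0.081 (limma, adjusted p = 0.649). Mrpl58, a peptidyl-tRNA hydrolase built into the large subunit that frees stalled chains, had 702, 671 and 695 in AICAR against 740, 892 and 855 in vehicle (-0.26 ± 0.11, limma, adjusted p = 0.675). In both genes the groups did not overlap. A dim Mrpl58 probe set (mean signal 51.1) gave 0.40 in AICAR, the opposite sign. Mrpl34, a counterpart of bacterial L34, had the most negative value of the 76, -0.27 ± 0.12, with 813, 754 and 789 in AICAR against 888, 961 and 1003 in vehicle.

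At the upper end no member separated by much. Mrpl32, whose maturation by a mitochondrial protease precedes ribosome assembly, had 949, 890 and 809 in AICAR against 806, 880 and 788 in vehicle (0.10 ± 0.085, limma, adjusted p = 0.849). Mrps22, a mitochondria-specific small subunit protein, had 534, 564 and 565 in AICAR against 445, 559 and 510 in vehicle (0.14 ± 0.13, limma, adjusted p = 0.853). Mrps9, the dimmest member and a counterpart of bacterial S9, had 250, 224 and 289 in AICAR against 262, 243 and 173 in vehicle (0.19 ± 0.21, limma, adjusted p = 0.893). The groups overlapped in these 3 genes. The 1 member wholly above vehicle was Mrpl39, with 1049, 1082 and 1068 in AICAR against 1017, 921 and 980 in vehicle (0.13). Its other probe set gave -0.03.

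Several members with known roles outside plain structure were followed whatever their result. Mrpl12, the stalk protein that also binds the mitochondrial RNA polymerase, had 1306, 1417 and 1349 in AICAR against 1488, 1462 and 1633 in vehicle, without overlap (-0.17 ± 0.098). Its signals in the combination (1541, 1358 and 1554) and in GW1516 (1748, 1386 and 1423) overlapped vehicle. Mrpl11, at the base of that stalk where translation factors bind, differed by -0.14 in AICAR, without overlap, by -0.06 in GW1516 and by -0.07 in the combination. The GW1516 value of Mrpl11 was -0.01 without GW1516 replicate 2. Its other probe sets, from bright to dim, gave -0.24, 0.33 and 0.60 in AICAR and -0.40, -0.13 and 0.48 in GW1516. Mrps12, of the decoding centre, differed by -0.12 in AICAR, -0.23 in GW1516 (-0.14 without replicate 2) and -0.08 in the combination. Mrpl44, which carries a ribonuclease III-like fold, differed by -0.09 in AICAR, -0.01 in GW1516 (-0.02 without replicate 2) and 0.07 in the combination. The other Mrpl44 probe sets gave 0.03, -0.05 and -0.08 in AICAR and 0.005, 0.16 and -0.21 in GW1516. In the combination they all had the opposite sign to the brightest one.

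GW1516 alone against vehicle asked what the PPARδ agonist does without AICAR. In GW1516 muscle 56 of 76 members had a mean below vehicle, where 52.9% of all genes did, and the median difference was -0.069, against -0.01. That value depended on single arrays: it was -0.016 with 45 members below zero without GW1516 replicate 2, and -0.15 with 63 below without GW1516 replicate 1. By limma 0 members passed, where 0.0940% of all genes (12 genes) did, and the smallest adjusted p was 0.277. At an unadjusted p under 0.05 there were 9 members lower and 1 higher, beside 5.16% and 4.48% of all genes. GW1516 lay wholly below vehicle for 6 members (7.91% of all genes) and wholly above for 1 (6.30%).

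Mrps18b was that 1 member. It is one of 3 mitochondrial relatives of bacterial S18, and sits in the small subunit. Its signals were 750, 881 and 757 in the combination, 816, 728 and 770 in AICAR, 939, 1091 and 1024 in GW1516, and 797, 815 and 887 in vehicle. The 3 GW1516 arrays were above all 9 others. GW1516 differed from vehicle by 0.29 ± 0.095 (SE), which is 1.22-fold with a 95% interval of 0.08 to 0.49 on the log2 scale (limma, adjusted p = 0.416), and by 0.24 without GW1516 replicate 2. Its relatives stood closer to vehicle: Mrps18a, which sits in the large subunit, differed by 0.03 between GW1516 and vehicle and Mrps18c by -0.03, or by 0.05 and 0.01 without GW1516 replicate 2. The 250 bases before its start, shown because it had the smallest p of the family when all groups were compared, lie at chr17:35916441-35916690 on the minus strand of GRCm38.p6 and held none of the motifs searched. The start of Ppp1r10 lies 756 bases away on the other strand.
Mrps18b: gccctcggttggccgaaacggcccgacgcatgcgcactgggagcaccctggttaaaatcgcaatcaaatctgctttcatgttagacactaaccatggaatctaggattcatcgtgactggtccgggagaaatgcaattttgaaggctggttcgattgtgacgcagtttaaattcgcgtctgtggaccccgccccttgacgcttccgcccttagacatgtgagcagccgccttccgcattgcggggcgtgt

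Mrpl51, a mitochondria-specific protein of the large subunit, had the smallest p on the lower side in GW1516. It had 3753, 3838 and 4056 in the combination, 3802, 3875 and 4008 in AICAR, 3652, 3272 and 3601 in GW1516, and 4195, 3977 and 4747 in vehicle. GW1516 lay below all other arrays and differed from vehicle by -0.29 ± 0.079 (0.816-fold, limma, adjusted p = 0.277), and by -0.24 without GW1516 replicate 2. Its other probe sets gave -0.06 and 0.53, of which 0.53 has the opposite sign. The bases before its start (chr6:125191950-125192199, plus strand, GRCm38.p6) are shown because they hold a core motif for ETS factors such as GABP, printed in capitals, whose first base is at -90 from the start.
Mrpl51: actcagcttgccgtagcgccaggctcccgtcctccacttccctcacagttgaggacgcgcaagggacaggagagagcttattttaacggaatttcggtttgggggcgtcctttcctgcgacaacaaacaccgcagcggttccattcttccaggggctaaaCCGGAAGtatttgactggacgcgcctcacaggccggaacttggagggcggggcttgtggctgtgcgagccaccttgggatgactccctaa

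Mrps33, a mitochondria-specific small subunit protein, gave the most negative value of any member in any comparison with vehicle. Its signals were 710, 512 and 681 in GW1516 against 883, 886 and 734 in vehicle, a difference of -0.40 ± 0.13 (0.755-fold, limma, adjusted p = 0.396). The groups did not overlap, but the lowest value came from GW1516 replicate 2, and without it the difference was -0.26. Mrpl33 also lay wholly below vehicle, with 307, 266 and 310 in GW1516 against 384, 314 and 333 in vehicle (-0.22). A dim Mrpl33 probe set (mean signal 36.3) gave 0.18 in GW1516. On the higher side, Mrpl57 and Mrpl32 followed Mrps18b in order of p, at 0.16 and 0.13.

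The combination stood close to vehicle across the family. In it 50 of 76 members had a mean below vehicle, where 50.9% of all genes did, with a median of -0.043, against -0.00. Without combination replicate 2 the median was -0.017 and 41 members were below zero. By limma 0 members passed, where 0.258% of all genes (33 genes) did, and the smallest adjusted p was 0.263. At an unadjusted p under 0.05 there were 3 members lower and 2 higher, beside 5.79% and 5.07% of all genes. The combination lay wholly below vehicle for 9 members (9.69% of all genes) and wholly above for 3 (8.90%), so both counts were near the background.

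Mrpl57, a small mitochondria-specific protein of the large subunit once named Mrp63, had the smallest p on the higher side. It had 1370, 1590 and 1625 in the combination, 1234, 1310 and 1298 in AICAR, 1497, 1295 and 1443 in GW1516, and 1190, 1224 and 1384 in vehicle. The combination was above AICAR without overlap but overlapped vehicle by 1 array, with a difference from vehicle of 0.27 ± 0.092 (1.21-fold, limma, adjusted p = 0.306). A probe set of lower signal gave 0.58 in the combination, the same direction.

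The other members named for the combination were those with the smallest p in each direction. That they stood on both sides of vehicle follows from this choice. Mrpl2, whose bacterial counterpart lies near the catalytic centre, had 2009, 2135 and 2211 in the combination against 1800, 1900 and 1901 in vehicle, without overlap (0.18 ± 0.073, limma, adjusted p = 0.381). Mrpl22, of the exit tunnel, had 1081, 1207 and 1586 in the combination against 998, 1205 and 1122 in vehicle, with overlap (0.21 ± 0.12, limma, adjusted p = 0.565). Mrpl36 and Mrpl21, counterparts of bacterial L36 and L21, were on the other side. Mrpl36 had 507, 465 and 409 in the combination against 526, 593 and 569 in vehicle, without overlap (-0.29 ± 0.11, limma, adjusted p = 0.328). Mrpl21 had 768, 779 and 798 in the combination against 924, 928 and 862 in vehicle, also without overlap (-0.21 ± 0.085, limma, adjusted p = 0.384). A dim Mrpl21 probe set (mean signal 83.3) had the opposite sign in the combination.

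**Figure D3:**
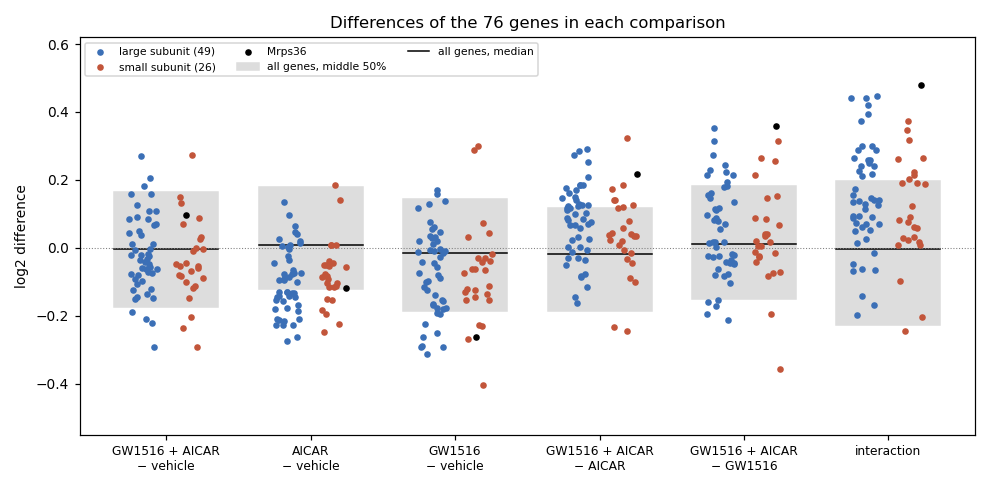
Log2 differences of the 76 members in 6 comparisons (large subunit blue, small subunit red, Mrps36 black), beside the median and the middle 50% of all 12771 genes (grey). The members' medians are -0.043, -0.095 and -0.069 for combination, AICAR and GW1516 against vehicle, 0.073 and 0.020 for the combination against AICAR and against GW1516, and 0.13 for the interaction, and no member lies beyond 0.5 in any of them.

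The direct comparisons set the combination against each drug. Against AICAR, the combination was above for 56 of 76 members, where 46.9% of all genes were, with a median of 0.073. Its 3 arrays lay wholly above AICAR for 13 members (6.80% of all genes) and wholly below for 2 (7.68%). By limma 0 members passed, where 0.0313% of all genes (4 genes) did, and at an unadjusted p under 0.05 there were 7 members higher and 0 lower, beside 3.28% and 4.04% of all genes. Against GW1516, the combination was above for 46 members, where 52.1% of all genes were, with a median of 0.020, and without GW1516 replicate 2 these were 36 members and -0.0067. The combination lay wholly above GW1516 for 4 members (6.77% of all genes) and wholly below for 3 (6.08%). In that comparison limma called 0 members and 0 genes (0%), while 1326 genes (10.4%) had an unadjusted p under 0.05. Of the members 6 did so on the higher side and 1 on the lower, beside 5.15% and 5.23% of all genes. The 5 comparisons share arrays: those with vehicle share its 3 arrays, and these share the combination arrays.

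Mrpl42, the brightest member and a mitochondria-specific protein of the large subunit, separated the combination from AICAR. Its signals were 7837, 9208 and 8403 in the combination, 7178, 7335 and 6281 in AICAR, 7913, 5525 and 7220 in GW1516, and 7877, 7437 and 7447 in vehicle. The means were 8482 ± 689 in the combination, 6931 ± 569 in AICAR, 6886 ± 1228 in GW1516 and 7587 ± 251 in vehicle (SD, n = 3 each). The combination exceeded AICAR by 0.29 ± 0.12 without overlap (limma, adjusted p = 0.666) and GW1516 by 0.31 ± 0.12 with overlap (limma, adjusted p = 0.380). Without GW1516 replicate 2 it exceeded GW1516 by 0.16.

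Mrpl23, a protein at the rim of the exit tunnel, showed a similar order with small spread. It had 2589, 2584 and 2639 in the combination, 2366, 2256 and 2248 in AICAR, 2543, 2103 and 2260 in GW1516, and 2257, 2532 and 2464 in vehicle. The combination was above all 9 other arrays, with differences of 0.19 from AICAR, 0.18 from GW1516 and 0.11 from vehicle. The difference from GW1516 was 0.12 without GW1516 replicate 2. Mrps15, a counterpart of bacterial S15, ran the other way, with 925, 696 and 790 in the combination against 941, 940 and 957 in AICAR (-0.25 ± 0.13, limma, adjusted p = 0.723). Also on the lower side by p stood Mrpl36 at -0.16 and Mrpl38 at -0.14.

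Mrps18b and Mrps36 marked the ends of the comparison with GW1516. For Mrps18b the combination differed from GW1516 by -0.36 ± 0.095 on the log2 scale (0.781-fold, limma, adjusted p = 0.267), and by -0.31 without GW1516 replicate 2. Mrpl50, a mitochondria-specific large subunit protein, had 673, 657 and 590 in the combination against 688, 786 and 687 in GW1516 (-0.17 ± 0.090, limma, adjusted p = 0.524), or -0.11 without GW1516 replicate 2. Mrpl38 had 721, 625 and 672 in the combination against 722, 768 and 750 in GW1516 (-0.15 ± 0.082, limma, adjusted p = 0.530). In all 3 genes the combination lay wholly below GW1516. The other Mrpl50 probe set, with a mean signal of 249, gave 0.008 in this comparison. Mrps33 was on the other side, at 0.32 ± 0.13, without overlap (limma, adjusted p = 0.428), and at 0.17 without GW1516 replicate 2.

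Mrps36 was named as a small subunit protein and is now known as a part of the 2-oxoglutarate dehydrogenase complex of the tricarboxylic acid cycle, so its place in the ribosome is in doubt. It had 1352, 1234 and 1253 in the combination, 1029, 1130 and 1147 in AICAR, 1141, 873 and 993 in GW1516, and 1250, 1199 and 1139 in vehicle. The means were 1280 ± 63.6 in the combination, 1102 ± 63.7 in AICAR, 1003 ± 134 in GW1516 and 1196 ± 55.8 in vehicle (SD, n = 3 each). The combination lay above both single drugs without overlap, by 0.22 ± 0.098 over AICAR (limma, adjusted p = 0.675) and 0.36 ± 0.098 over GW1516 (limma, adjusted p = 0.286), while it overlapped vehicle. Without GW1516 replicate 2 the difference from GW1516 was 0.26. The bases before its start are shown beside those of true ribosomal members because this gene had the largest interaction (chr13:100744660-100744909, minus strand, GRCm38.p6). They held none of the motifs searched.
Mrps36: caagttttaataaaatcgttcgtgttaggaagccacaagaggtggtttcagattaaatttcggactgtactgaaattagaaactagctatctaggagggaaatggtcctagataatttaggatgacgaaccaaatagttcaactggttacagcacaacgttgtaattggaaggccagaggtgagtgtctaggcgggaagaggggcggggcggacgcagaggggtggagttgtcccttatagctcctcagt

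The interaction asked whether the combination departed from the sum of the 2 single-drug differences. It is the combination's difference from vehicle less those of both single drugs, so a positive value means the combination was above that sum. It was above zero for 65 of 76 members, where 49.5% of all genes were, with a median of 0.13. Without GW1516 replicate 2 it was above zero for 53 members with a median of 0.089, and without GW1516 replicate 1 for 66 with a median of 0.19. By limma 0 members and 0 genes passed (0%), while 848 genes (6.64%) had an unadjusted p under 0.05. Of the members 9 did so above zero and 0 below, beside 3.29% and 3.35% of all genes.

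The interaction was 0.48 ± 0.14 for Mrps36 (95% interval 0.18 to 0.78, limma, adjusted p = 0.723) and 0.38 without GW1516 replicate 2. It was 0.45 ± 0.16 for Mrpl42, where GW1516 replicate 2 held the lowest array, and 0.30 without that array. Mrpl15, a counterpart of bacterial L15, had 1365, 1387 and 1443 in the combination, 1274, 1270 and 1320 in AICAR, 1399, 1189 and 1306 in GW1516, and 1458, 1424 and 1485 in vehicle, an interaction of 0.29 ± 0.11. Both single drugs were wholly below vehicle for Mrpl15, GW1516 by -0.17 (-0.11 without replicate 2), and the combination overlapped it by 1 array. The other Mrpl15 probe sets, from bright to dim, gave interactions of 0.03, 0.20, 0.31, 0.27 and -0.78. Those of mean signal 1238 and 1097 differed from vehicle by -0.12 and 0.06 in AICAR and by 0.03 and -0.16 in GW1516. On the negative side the smallest p belonged to Mrps18b (-0.24 ± 0.13), Mrpl38 (-0.20) and Mrpl32 (-0.14). Large and small subunit genes had interaction medians of 0.14 (41 of 49 above zero) and 0.086 (23 of 26), and without GW1516 replicate 2 medians of 0.088 (36) and 0.064 (16).

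**Figure D4:**
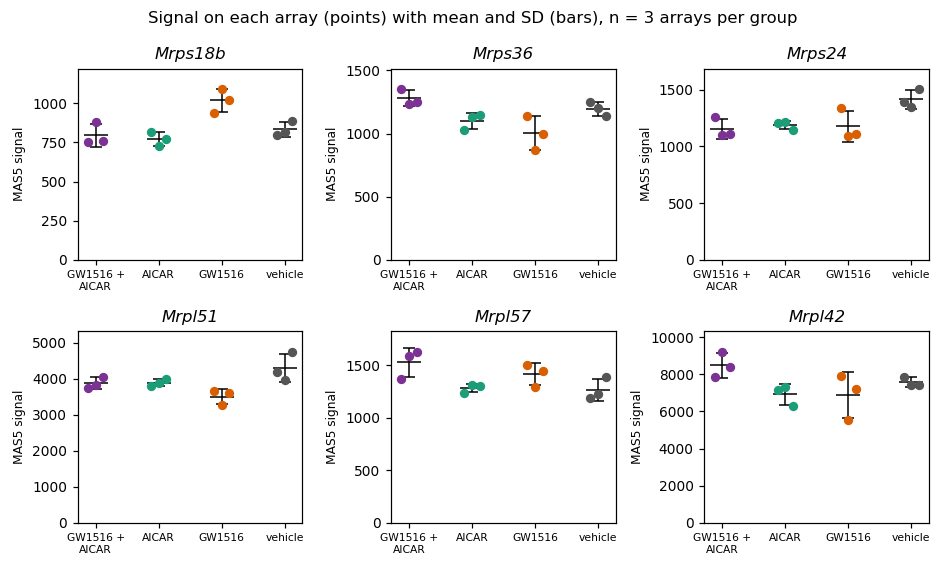
Array signals (linear scale) of Mrps18b, Mrps36, Mrps24, Mrpl51, Mrpl57 and Mrpl42 in the combination, AICAR, GW1516 and vehicle, with group mean and SD (n = 3 each). GW1516 stands above the other groups for Mrps18b (939 to 1091) and below them for Mrpl51 (3272 to 3652), and vehicle stands above the other groups for Mrps24 (1346 to 1504).

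Compared over all 4 groups at once by limma's F test, 0 members passed, where 0.110% of all genes (14 genes) did, and the smallest adjusted p was 0.273. At an unadjusted p under 0.05 there were 6 members (7.89%), beside 10.4% of all genes. Mrps18b, Mrps36, Mrpl51 and Mrps24 had the smallest p.

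The remaining members named for their brightness or dimness differed in spread. Mrps14, a counterpart of bacterial S14, had 2335, 2231 and 2529 in the combination, 2342, 2288 and 2277 in AICAR, 2519, 2077 and 2311 in GW1516, and 2436, 2492 and 2746 in vehicle, so AICAR alone lay wholly below vehicle (-0.15). Mrps35, a mitochondria-specific small subunit protein with the widest spread, had 348, 294 and 322 in the combination, 178, 269 and 349 in AICAR, 357, 387 and 251 in GW1516, and 251, 287 and 258 in vehicle. Its combination arrays were wholly above vehicle, but the difference of 0.27 had a standard error of 0.21. Mrpl1, a counterpart of bacterial L1, had 275, 292 and 289 in AICAR against 321, 378 and 307 in vehicle (-0.23). Its other probe set, with a mean signal of 181, gave 0.18 in AICAR. Mrps5 and Mrps30, followed whatever their result, differed from vehicle by -0.08 and -0.10 in AICAR, and between -0.00 and 0.07 in GW1516 and the combination. Without GW1516 replicate 2 their GW1516 values were 0.12 for Mrps5 and -0.11 for Mrps30. The other Mrps5 probe sets, from bright to dim, gave 0.24, 0.23 and -0.04 in AICAR.

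Different probe sets of a gene did not always run the same way. Of the 76 members, 37 were measured by several probe sets bright enough to be kept, which gave 62 further ones beside the brightest. These had the sign of the brightest one in 36 cases for AICAR, 42 for GW1516, 29 for the combination and 37 for the interaction. Mrpl15 had the widest range, from -0.06 to 1.13 in the combination over its 6 probe sets, and the highest value came from a dim probe set with a mean signal of 36.1. A probe set of Mrpl34 close to the filter, with a mean signal of 28.2, gave -1.33 in GW1516, and one of Mrpl27 with a mean signal of 81.0 gave -0.75 in the combination, where the brightest set gave -0.03. For Mrpl11 the other sets gave -0.27, 0.25 and 0.33 in the combination. The brightest probe set of 7 members, Mrpl15, Mrpl19, Mrpl37, Mrpl38, Mrps6, Mrps12 and Mrps24, is of a design that can bind related transcripts, so those values are less certain.

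Related lists, chosen with earlier results of these data known, were set beside the members. Of 4 mitochondrial ribosome proteins whose symbols do not follow the Mrpl or Mrps rule (Dap3, Ptcd3, Chchd1 and Gadd45gip1), all 4 were below vehicle in AICAR, with a median of -0.12, and 0 passed the threshold. Dap3, a GTP-binding protein of the small subunit, had 1249, 1160 and 1258 in the combination, 1079, 1141 and 1154 in AICAR, 1283, 1125 and 1146 in GW1516, and 1254, 1216 and 1189 in vehicle (AICAR -0.12 ± 0.079, limma, adjusted p = 0.789). AICAR alone was wholly below vehicle. Ptcd3, a small subunit protein that binds RNA, differed by -0.27 ± 0.13 in GW1516 (limma, adjusted p = 0.517), or by -0.11 without GW1516 replicate 2.

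The other parts of mitochondrial translation gave similar small values, and by limma 0 of their genes passed in any of the 3 comparisons with vehicle. The 12 translation factors had medians of -0.10 in the combination, -0.09 in AICAR and -0.11 in GW1516 (-0.057 without replicate 2). Among them Mtrf1l, a release factor, differed by -0.58 ± 0.19 in the combination (limma, adjusted p = 0.277), Tufm, the elongation factor that delivers aminoacyl-tRNA, by -0.32 (limma, adjusted p = 0.316), and Tsfm, which recharges it, by 0.33 (limma, adjusted p = 0.363). The 15 mitochondrial aminoacyl-tRNA synthetases had medians of -0.12 in the combination (13 below vehicle), -0.07 in AICAR (13 below) and -0.11 in GW1516 (14 below, or 10 without replicate 2). Hars2, for histidine, differed by -0.41 ± 0.12 in the combination (limma, adjusted p = 0.245). The 22 assembly and ribosomal RNA factors had medians of -0.04 in the combination, -0.02 in AICAR and -0.11 in GW1516. Of the 11 genes of mitochondrial DNA transcription and RNA, Slirp, which stabilises mitochondrial messages, had the smallest p in AICAR (-0.32 ± 0.097, limma, adjusted p = 0.517) and also stood at -0.31 in the combination.

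The protein partners of the products of this ribosome, 71 nuclear subunits of oxidative phosphorylation, had 0 genes past the threshold in the 3 comparisons with vehicle. Their medians were 0.05 in the combination, -0.05 in AICAR and -0.09 in GW1516, with 20 below vehicle in the combination (50.9% of all genes), 59 in AICAR (48.0%) and 62 in GW1516 (52.9%). Without GW1516 replicate 2 the GW1516 median was 0.008, with 34 below. After quantile normalization the combination median was 0.001. The interaction was above zero for 66 of 71 (49.5% of all genes), with a median of 0.18, and for 61 with a median of 0.098 without that array. Cytosolic ribosomal proteins, a separate machine, had medians of -0.01 in the combination, -0.10 in AICAR and 0.02 in GW1516 over 42 genes tested, of which 0 passed. In AICAR 35 of 42 were below vehicle, where 48.0% of all genes were, and 22 lay wholly below it, where 9.03% did. In GW1516 the median was 0.003 without replicate 2. In AICAR most genes of both lists were below vehicle. Among 11 upstream regulators, 0 passed: Ppargc1a, a coactivator of mitochondrial genes, differed by 0.21 in AICAR (limma, adjusted p = 0.730), and Gabpa, a subunit of the ETS factor GABP, by -0.42 in the combination (limma, adjusted p = 0.324).

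**Figure D5:**
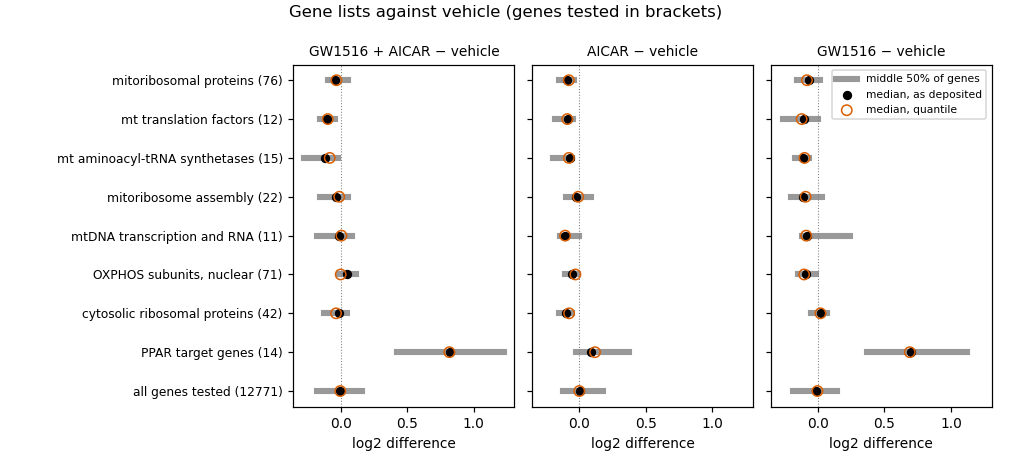
Median log2 difference from vehicle (black as deposited, orange after quantile normalization) and middle 50% of genes (bars) for 8 lists and all genes in the combination, AICAR and GW1516. The mitochondrial ribosomal proteins lie at -0.043, -0.095 and -0.069 as deposited, and cytosolic ribosomal proteins at -0.01, -0.10 and 0.02.

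The sequence before the gene start was examined for what the members share. RefSeq entries on GRCm38.p6 matched 67 of the 76 members by symbol, and the 250 bases before the start were searched on both strands. The letters CCGGAAG, a core for ETS factors including GABP, were found in 17 members (25.4%), against 7.83% of 27025 genes and 10.2% of 17491 protein-coding genes. Besides Mrpl51 these were Mrpl3, Mrpl17, Mrpl18, Mrpl22, Mrpl27, Mrpl34, Mrpl43, Mrpl48, Mrpl52, Mrpl58, Mrps16, Mrps18a, Mrps18c, Mrps22, Mrps26 and Mrps27. The NRF1 palindrome (GCGC, AT and GCGC in one run) was in Mrpl9, Mrpl32 and Mrpl39, which is 3 members (4.48%). It was in 0.877% of all genes and 1.21% of protein-coding genes. The YY1 core AAGATGGC was in 4 members (5.97%), Mrpl32, Mrpl36, Mrps11 and Mrps12, against 1.83% of all genes and 1.77% of protein-coding genes. For Mrps11 and Mrps12 the letters are not in the stretch between paired starts printed below. There they lie at or beyond the start of the neighbouring gene, Mrpl46 or Sars2. The cyclic AMP element TGACGTCA was in Mrpl16 and Mrpl49 (2.99%), against 1.77% of all genes and 2.20% of protein-coding genes. The ERR element TCAAGGTCA and the PPAR direct repeat (AGGTCA, any base, AGGTCA) were in 0 members, against 0.422% and 0.0407% of all genes. Both are so rare that 0 among 67 members tells nothing about the family. The 250 bases were also richer in G and C, with a median of 58.4% against 52.4%, and held a median of 17 CG dinucleotides against 6, and the part of base composition in the motif counts was not tested. The 17 genes with the ETS letters had median differences of -0.034 in the combination, -0.087 in AICAR and -0.12 in GW1516 (-0.036 without replicate 2), and the 50 without them -0.047 in the combination, -0.11 in AICAR and -0.063 in GW1516 (-0.018 without it).

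Many members start back to back with another gene. A start on the opposite strand within 1000 bases, pointing away, was found for 25 of 67 members (37.3%), against 12.3% of all genes and 13.2% of protein-coding genes. Mrps11 and Mrpl46 are such a pair within the family, with starts 42 bases apart. Mrps12 shares its start region with Sars2, the mitochondrial serine tRNA synthetase, 147 bases away, Mrpl43 with Twnk, the mitochondrial DNA helicase (116 bases), and Mrpl47 with Ndufb5, a subunit of complex I (308 bases). The stretches between the paired starts are shown because each lies between a pair of genes of mitochondrial gene expression, the first at chr7:78783090-78783130 (plus strand, from Mrpl46 to Mrps11) and the second at chr7:28741822-28741967 (minus strand, from Sars2 to Mrps12), both GRCm38.p6.
Mrps11 and Mrpl46: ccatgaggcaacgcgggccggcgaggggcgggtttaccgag
Mrps12 and Sars2: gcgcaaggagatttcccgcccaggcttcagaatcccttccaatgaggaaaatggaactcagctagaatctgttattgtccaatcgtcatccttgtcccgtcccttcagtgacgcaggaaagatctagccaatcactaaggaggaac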

How the data were processed

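Gene expression was measured on 12 Affymetrix mouse arrays. The authors deposited linear intensity values, MAS5 signals per the submitters' processing notes, one per probe set, and the values show a 2% trimmed mean of 200 on every array. Its version is not given in the sources used here. Of 45101 probe sets 64 controls were dropped. Signals under 1 were raised to 1 before log2, and arrays were not normalized further. The dimmest 40% by mean (signal under 28.2) were left out. Genes were named from the array annotation by probe sets with 1 symbol. Mrpl30 and Mrpl53 occur only on probe sets with several symbols and were not analysed here.

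Groups were compared in limma 3.58.1 (R 4.3.3), with a mean per group over all 12 arrays, trended moderated variances (8 residual and 5.91 prior degrees of freedom), two-sided tests and Benjamini-Hochberg adjustment over 12771 genes. Named members were the 3 with the smallest p per direction and comparison, the 4 brightest and 4 dimmest, the 4 with the smallest F test p, the 4 with the widest range over probe sets, and a fixed set. Members and lists were chosen with earlier results of these data known. Replicate numbers did not pair the arrays: over 18 same-numbered pairs the correlation of deviations from group means ran from -0.11 to 0.069. Promoters came from RefSeq, GRCm38.p6, and figures from matplotlib 3.10.9. The alternatives tried were median centring, quantile normalization, adding 32 before log2, a filter of 60% or none, averaged probe sets, no trend, array weights, only the groups compared, a replicate block, and each array left out. The number of arrays limits the precision.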

Additional observations from a re-analysis of the deposited data

How the results depend on the processing

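No mitochondrial ribosomal protein passed the threshold under any of 194 alternatives to the counts of calls, where the smallest adjusted p by limma was 0.0824. The members' median in GW1516 against vehicle moved beyond the spread between arrays without GW1516 replicate 1, to -0.15, and the omissions of single arrays gave -0.15 to -0.016. The medians in AICAR stayed between -0.13 and -0.075 over the alternatives that keep all arrays. With quantile normalization the combination difference was 0.025 for Mrps5 and -0.0005 for Mrps18a, both near zero in either setting. With the replicate number as a block (replicate block) 0 members passed and the smallest adjusted p was 0.698 for AICAR, 0.311 for GW1516 and 0.296 for the combination. Lists and named members without GW1516 replicate 2, and counts of members on one side of zero without each array, were chosen after seeing the data. The counts ran from 58 to 65 below for AICAR, 45 to 63 below for GW1516, 41 to 50 below for the combination, and 53 to 66 above for the interaction.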
